A study of Mus musculus with 6 samples.

Results

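The genes described here were grouped as those of the standing, or constitutive, proteasome and its activators. They are the 45 genes, of 55536 with raw counts, whose symbol is Psm followed by a class letter from a to g and a number and nothing more, with the interferon-inducible Psmb8, Psmb9 and Psmb10 left out. They comprise 16 genes of the 20S core (8 of its alpha ring and 8 of its beta ring), 17 genes of the 19S cap (6 base ATPases and 11 non-ATPases), 5 activator and inhibitor genes and 7 chaperone genes. The pseudogene Psmb7-ps2, the meiotic recombination gene Psmc3ip and the Psme2 copy Psme2b were outside the rule.

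The proteasome degrades proteins tagged with ubiquitin. Its barrel-shaped core carries the protease sites inside the beta ring, behind a gate formed by the alpha ring, and the cap recognizes ubiquitin, removes it, and unfolds and feeds in the substrate. Other activators open the gate without ubiquitin, and interferon replaces the standing protease subunits with inducible ones that favor antigen presentation. When proteasome activity falls, the transcription factor NRF1 is known to raise the genes of the whole complex together.

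RNA came from tumors of HCA-1, a murine HCC cell line, implanted in the livers of male C3H mice (C3H/HeNCrNarl in the study methods) aged 6 to 8 weeks. The 3 control libraries (labelled 5, 6 and 7) came from untreated mice, which received no empty carrier. The 3 treated libraries (labelled 1, 2 and 5) came from mice that received GOx-DOX-LGP intravenously on days 18, 19 and 20, a nanogel that carries glucose oxidase in its core and doxorubicin in its shell. The labels place the transcriptome analysis on day 17 after 3 h of circulation, which precedes the dosing days they give. The paper's supporting methods place tumor harvest after the last dose for RT-qPCR and give no day for sequencing. All tumors came from 1 cell line, and bulk RNA also holds the host cells in and around a tumor.

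Levels are given as CPM, counts relative to library size after TMM scaling, and levels of different genes are compared only as CPM per kb of the principal transcript. Library totals lay between 15529940 and 18401178 counts. The libraries did not separate by group. Log2 CPM of control 6 and control 7 correlated with each other across genes at 0.969, whereas control 5 correlated with control 6 at 0.730 and with the treated libraries at 0.966 to 0.975. The 12 hepatocyte markers, Alb among them, summed to 133020 CPM in control 6 and 213600 CPM in control 7, against 708 CPM in control 5 and 1533 to 3777 CPM in the treated libraries, and none was at 0 in any library. Conversely, 10 proliferation genes summed to 372 CPM in control 6 and 94.7 CPM in control 7, against 1243 CPM in control 5 and 885 to 1134 CPM in the treated libraries. Of the liver cancer markers, Spp1 was at 463 and 178 CPM in controls 6 and 7, against 4589 to 6936 CPM in the other libraries. Krt8 and Krt18, at 313 CPM or more in every library, were also lowest in controls 6 and 7. Afp went the other way, at 10.3 and 13.2 CPM in controls 6 and 7 against 2.25 to 4.94 CPM in the other libraries. Gpc3 (2.29 and 2.15 CPM) and H19 (1.70 and 2.15 CPM) were low but also highest in controls 6 and 7. Igf2 was at 0 in 3 libraries. In bulk RNA, fewer cells of a type and less RNA per cell cannot be told apart. Since the hepatocyte markers were high only in controls 6 and 7, the main results are also given without these libraries.

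Of the 45 genes, 43 passed the filter on low counts and were detected in every library with 55 to 5574 counts. Detection does not show that a gene is constitutive, and Psme1 and Psme2 among the 43 are known to be induced by interferon gamma. Those that did not pass were genes of other tissues. Psma8, the alpha subunit of germ cells, lay between 0.170 and 2.48 CPM, and Psmb11, the beta subunit of thymic epithelium, was at 0 in 5 libraries and at 0.0494 CPM in treated 1. Levels per kb ran from a mean of 6.72 CPM per kb for Psmg3 to 149 CPM per kb for Psma7.

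No proteasome gene was called between treated and control tumors at an adjusted p under 0.05 (edgeR quasi-likelihood test, Benjamini-Hochberg over 15374 genes). The test called 0 of the 43 genes, and 0.0% of all genes. On simulated counts at the dispersion of these data it recovered 0 of 191 genes with a log2 fold change of 2. The lack of calls therefore does not show that the proteasome genes were unchanged. At an unadjusted p under 0.05, 2 of the 43 were lower in treated tumors, Psmd11 and Psme4, where the share of all genes was 14.6%, and 0 were higher, where it was 2.87%. For 1 of the 43, Psme4, the treated values all lay below the control values, against 8.31% of all genes, and for 0 they all lay above, against 8.87%. DESeq2 also called 0 of the 43, while it called 8.93% of all genes lower and 0.93% higher. Calls appeared in 2 settings. Without control 5, 14 of the 44 genes then tested were called lower and 0 higher (all genes 25.5% and 22.2%), and limma voom with quality weights called 20 lower and 2 higher (all genes 30.9% and 29.2%).

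Many small differences nonetheless pointed the same way. With TMM scaling 36 of the 43 log2 fold changes were below 0, against 48.9% of all genes, with a median of −0.24 beside 0.02 for all genes, whereas scaling by library totals put 37 of the 43 above 0, with a median of 0.36 beside 0.51. The shift of all genes that came with a scaling was −0.42 for housekeeping genes, 0.19 for the upper quartile and 0.01 for DESeq2 size factors. Relative to that shift, the proteasome median was lower in every scaling, by 0.15 to 0.31 on the log2 scale. The same difference was −0.03 with the hepatocyte score as a covariate, and 0.08, in the other direction, without controls 6 and 7. The plot of medians by setting shows these values side by side.

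**Figure D1:**
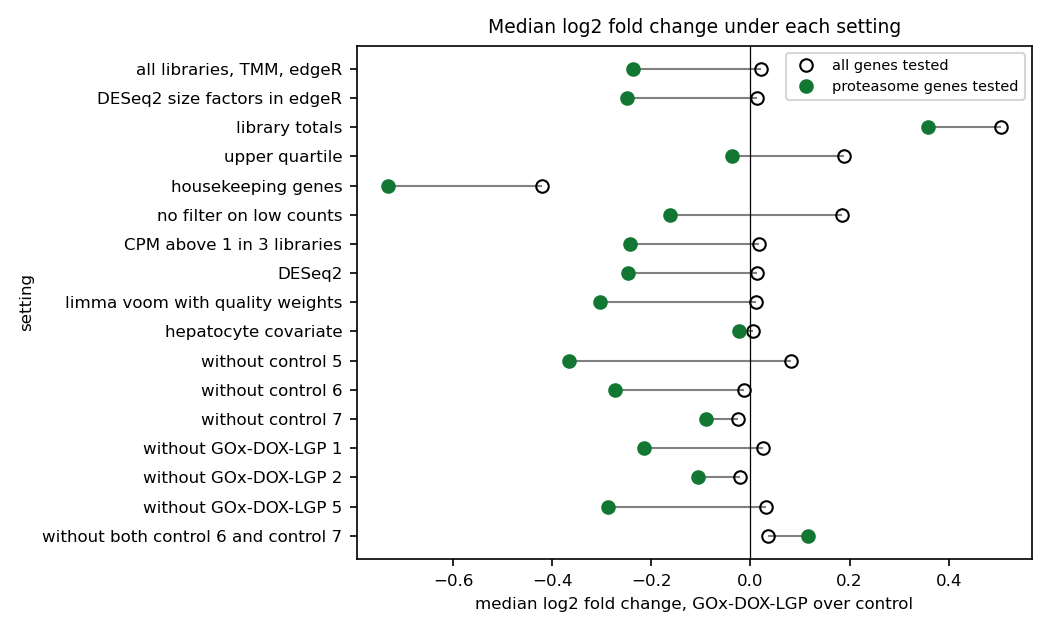
Median log2 fold change, GOx-DOX-LGP over control (x axis), of all genes tested (open circles) and of the proteasome genes tested (green circles) under each setting (y axis), joined by a line. The green circle lies left of the open one in every setting but the last, and right of it, at 0.12 against 0.03, when controls 6 and 7 are left out.

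Levels of proteasome genes differed between libraries of the same group. Control 7 held the highest level of 33 of the 43 genes, and control 6 and control 7 were both above the other 4 libraries for 23 of them, where 32.9% of all genes had that order. Control 5 lay within the range of the treated libraries for 28 genes, against 45.6% of all genes. The lowest level was in treated 2 for 25 genes and in control 5 for 12. The median SD over the 6 libraries was 0.32 in log2 CPM for the proteasome genes, beside 0.55 for all genes tested. All genes were not matched to the proteasome genes for level, so this is not shown to be a trait of the family.

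**Figure D2:**
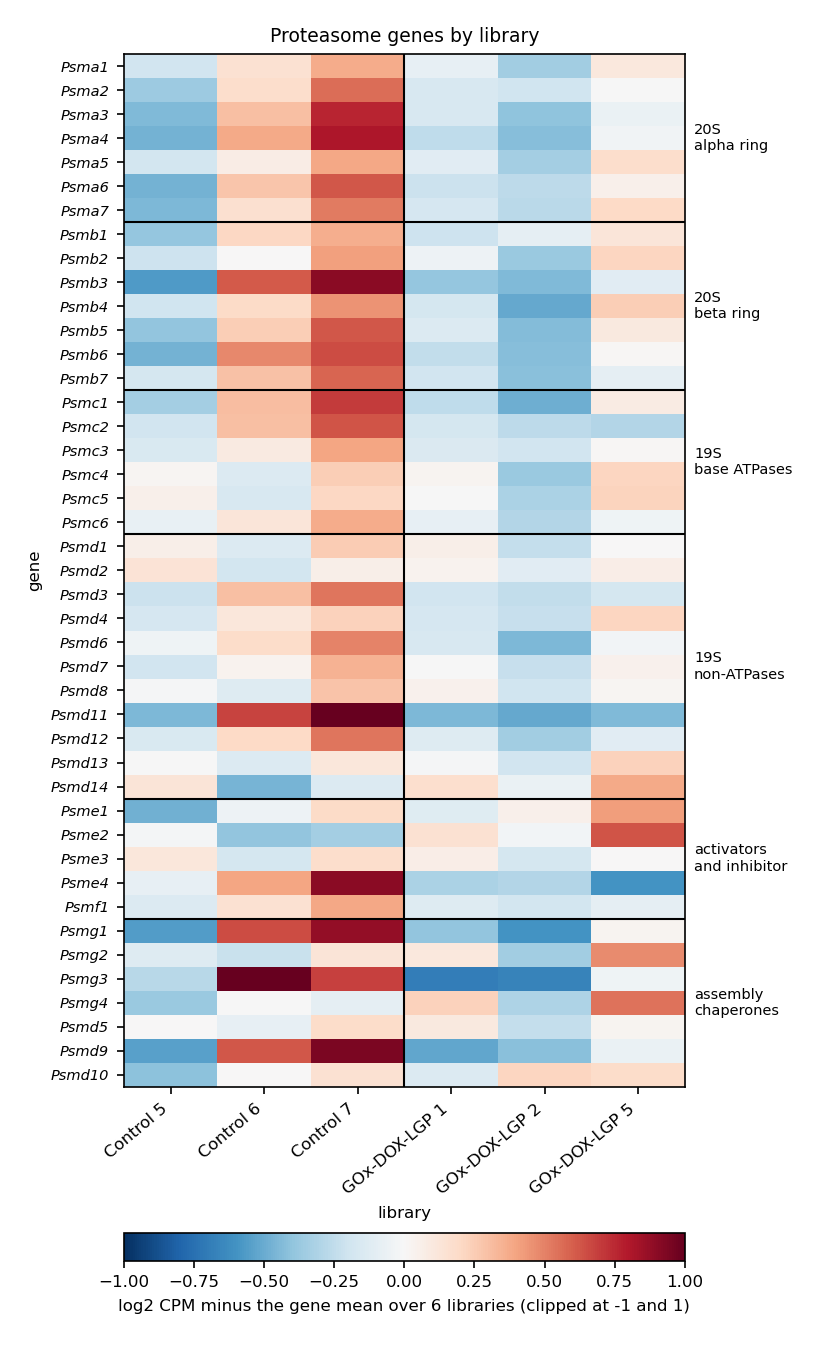
Log2 CPM (TMM) of each of the 43 proteasome genes tested (y axis, grouped by class) in each library (x axis), minus the gene's mean over the 6 libraries, with red above and blue below that mean and values clipped at −1 and 1. Control 7 is red for most genes and control 6 for the core genes, while control 5 resembles the treated libraries.

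The protease subunits of the beta ring were higher in controls 6 and 7 than in the other libraries, and control 5 lay with or close to the treated tumors. Psmb5, which carries the chymotrypsin-like site, stood at 20.1, 31.5 and 40.9 CPM for controls 5, 6 and 7 in that order, and at 24.1, 19.6 and 28.4 CPM for treated 1, 2 and 5, the order kept from here on. Psmb6, which carries the caspase-like site, measured 56.1, 109 and 122 CPM in the controls and 65.5, 57.8 and 78.4 CPM in the treated tumors. Psmb7, which carries the trypsin-like site, measured 42.9, 59.4 and 72.3 CPM in the controls and 42.4, 36.2 and 45.5 CPM in the treated tumors. In each case the groups overlapped only because of control 5. Log2 fold changes were −0.36 ± 0.31 (SE, n = 3 and 3) for Psmb5, −0.51 ± 0.34 for Psmb6 and −0.49 ± 0.25 for Psmb7, with adjusted p of 0.534, 0.439 and 0.350 in edgeR's quasi-likelihood test. Without controls 6 and 7 they were 0.27, 0.28 and −0.04. Of the stretches of 50 bases in Psmb5 transcripts, 47.4% also occur in Gm3375 or Psmb5-ps, so its counts are uncertain.

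Control 7 was also the highest library for the other beta subunits. Psmb3 had the most negative log2 fold change of the core, with 36.5, 82.7 and 101 CPM in the controls and 41.3, 39.8 and 50.2 CPM in the treated tumors. Its log2 fold change was −0.75 ± 0.39 (adjusted p = 0.357, edgeR), and control 5 was the lowest of all libraries. Psmb2 was the flattest of the ring, at 60.6, 70.1 and 92.8 CPM in the controls and 67.5, 53.9 and 80.9 CPM in the treated tumors, groups that overlapped (−0.14 ± 0.26).

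In the alpha ring, which gates the barrel, control 7 was the highest library for each of the 7 genes tested, and control 5 the lowest for 5. Psma4 measured 103, 186 and 250 CPM in the controls and 120, 107 and 139 CPM in the treated tumors (log2 fold change −0.56 ± 0.37, edgeR adjusted p = 0.433). Psma3 measured 104, 173 and 239 CPM in the controls and 126, 106 and 134 CPM in the treated tumors (−0.49 ± 0.35). Psma5, the nearest to 0, measured 78.7, 94.1 and 117 CPM in the controls and 82.4, 70.5 and 101 CPM in the treated tumors. For all of these, control 5 was within or below the treated range, and 49.1% of the Psma5 stretches are shared with other genes. Over the whole core, 14 of 14 log2 fold changes were below 0 with TMM scaling (median −0.32), 13 of 14 were above 0 with library totals, and 13 of 14 were above 0 without controls 6 and 7 (median 0.26).

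**Figure D3:**
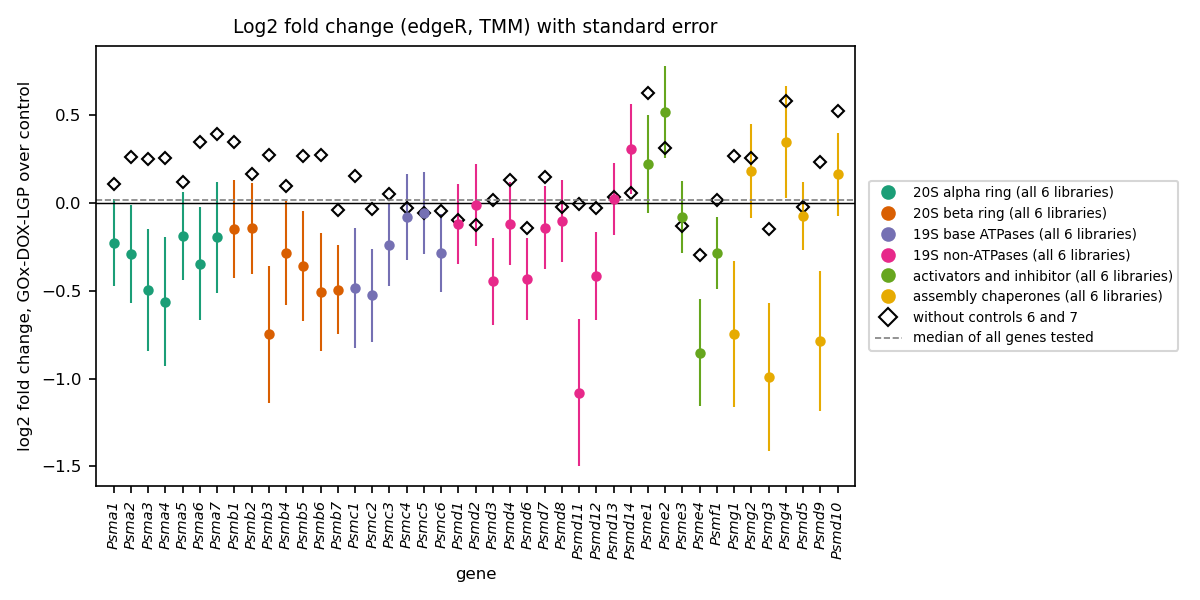
Log2 fold change (edgeR, TMM, y axis) of each proteasome gene tested (x axis, colored by class) with its standard error, beside the value without controls 6 and 7 (open diamonds) and the median of all genes tested (dashed line). The 14 core genes lie below 0 with all 6 libraries, but 13 of their diamonds lie above 0, and 13 of the 14 are also above 0 when scaled by library totals.

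Since the core genes moved together across libraries, their promoters were read for short words of factors known to act on them. RefSeq promoters (GRCm38.p6, 250 bases before to 50 after a start) were available for 37 of the 45 genes and 27025 genes in all. The protease gene Psmb7 had none and was not searched, nor were Psma8, Psmb1, Psmb2, Psmc3, Psmd3, Psmd7 and Psmg2. TGACNNNGC, the antioxidant response element that NRF1 and NRF2 bind, was present on either strand in 6 of the 37 (16.2%), against 14.0% of all genes. Windows are shown for the protease genes that hold it and for the chaperone gene Psmd9, where the word ends within 40 bases of the start; capitals mark the word.
Psmb5, chr14:54618014-54618062, minus strand: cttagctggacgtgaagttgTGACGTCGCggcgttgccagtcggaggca
Psmb6, chr11:70525328-70525356, plus strand: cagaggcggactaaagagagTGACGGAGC
Psmd9, chr5:123228139-123228187, plus strand: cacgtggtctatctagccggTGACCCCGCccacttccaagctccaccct
The TGACNNNGC shares of proteasome genes and all genes were close to each other, and a match of letters is not a bound site. CCAAT was present in 13 of the 37 (35.1%, all genes 41.1%). The interferon-stimulated element (GAAA, any 2 bases, GAAA) was present in 5 of the 37 (13.5%, all genes 3.99%), namely Psmb3, Psmd4, Psmd9, Psme1 and Psmg4. The other interferon word searched, the gamma-activated site TTCNNNGAA, was present in 2 of the 37 (5.41%, all genes 9.55%). Words were searched on both strands, and they can overlap.

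The base ATPases form the ring of the cap that unfolds substrates. Their median log2 fold change was −0.26, beside −0.32 for the core, and 6 of 6 were below 0 with TMM scaling. With library totals 6 of 6 were above 0 (median 0.33), and 4 of 6 were below 0 without controls 6 and 7 (median −0.03). Psmc2 measured 90.9, 128 and 161 CPM in the controls and 92.1, 86.8 and 84.9 CPM in the treated tumors (−0.52 ± 0.26, edgeR adjusted p = 0.347). Psmc1 measured 127, 199 and 261 CPM in the controls and 135, 115 and 170 CPM in the treated tumors (−0.48 ± 0.34). Psmc5 was level, at 110, 94.8 and 122 CPM in the controls and 106, 85.3 and 124 CPM in the treated tumors (−0.06 ± 0.24). In Psmc2 and Psmc1 controls 6 and 7 were again the high libraries, which was not so in Psmc5.

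Among the non-ATPases, Psmd11 stood apart. Psmd11 is a scaffold subunit of the lid, the part of the cap that removes ubiquitin, and has been linked to raised proteasome activity in stem cells. Its level was 74.1, 161 and 228 CPM in the control tumors, and 74.0, 70.7 and 74.6 CPM in the treated ones. The treated tumors and control 5 were thus nearly equal, and the difference lay in controls 6 and 7. The log2 fold change was −1.08 ± 0.42, with an unadjusted p of 0.0405 and an adjusted p of 0.268 in edgeR, where the alternatives ranged from 0.000872 to 0.996. Without control 5 it was −1.38 (adjusted p = 0.00152), and without controls 6 and 7 it was −0.01.

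Psmd6, another lid scaffold subunit, measured 74.7, 87.8 and 109 CPM in the controls and 68.9, 56.3 and 75.7 CPM in the treated tumors, where control 5 alone fell within the treated range (−0.43 ± 0.23, edgeR adjusted p = 0.369). Psmd2, the ubiquitin-like domain receptor of the base, was level at 245, 195 and 231 CPM in the controls and 228, 205 and 233 CPM in the treated tumors (−0.01 ± 0.23). Psmd14, named here after its values were seen, encodes the lid deubiquitinase and was lowest in controls 6 and 7. It measured 135, 90.0 and 113 CPM in the controls and 139, 118 and 161 CPM in the treated tumors (0.31 ± 0.25, edgeR adjusted p = 0.516). Over the cap, 15 of 17 log2 fold changes were below 0 with TMM scaling (median −0.14), whereas 16 of 17 were above 0 with library totals. Of the 17, 10 were below 0 without controls 6 and 7 (median −0.02).

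The activators were mixed, with 3 of the 5 activator and inhibitor genes below 0 with TMM scaling and 1 with library totals. PA28, which opens the gate and is induced by interferon gamma, is built from Psme1 and Psme2, and these had positive log2 fold changes. Psme2 measured 118, 91.1 and 94.7 CPM in the controls and 133, 118 and 185 CPM in the treated tumors (0.52 ± 0.26, unadjusted p = 0.0950, adjusted p = 0.348, edgeR). Control 5 and treated 2 were at the same level, so the groups met there, and 28.3% of the Psme2 stretches also occur in Psme2b or Gm7928. Psme1 measured 104, 140 and 166 CPM in the controls and 134, 151 and 194 CPM in the treated tumors, with overlap (0.22 ± 0.28). Without controls 6 and 7 the log2 fold change of Psme1 was 0.63 (unadjusted p = 0.0487, adjusted p = 0.885, edgeR), and with housekeeping scaling it was −0.29. The 8 interferon-response genes summed to 2980 to 3614 CPM in the controls and 4306 to 4694 CPM in the treated tumors, and 8 of 8 had positive log2 fold changes, 0 of them with an unadjusted p under 0.05. The leukocyte markers, 10 of 11 tested with a positive log2 fold change, summed to 1107, 719 and 466 CPM in the control tumors and to 1033, 2804 and 1419 CPM in the treated ones. Most of each sum was Lyz2, named here after its values were seen, at 760, 436 and 288 CPM in the controls and 739, 2262 and 989 CPM in the treated tumors. Ptprc was at 116, 69.2 and 39.3 CPM in the controls and 90.8, 115 and 116 CPM in the treated tumors. The part of the interferon-response genes and leukocyte markers in the PA28 values was not tested.

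Psme4 encodes PA200, an activator of the nucleus linked to histone degradation. It measured 99.4, 138 and 196 CPM in the controls and 84.8, 85.8 and 69.5 CPM in the treated tumors. It was the 1 proteasome gene whose groups did not overlap in CPM, with control 5 closest to the treated tumors. The log2 fold change was −0.85 ± 0.30, with an unadjusted p of 0.0303 and an adjusted p of 0.250 in edgeR, where the alternatives ranged from 0.00270 to 0.888, and it was below 0 in each of the 16 alternatives. Without controls 6 and 7 it was −0.30 ± 0.21. Psme3, the nuclear activator PA28 gamma, was level at 107, 87.4 and 111 CPM in the controls and 103, 87.2 and 98.8 CPM in the treated tumors (−0.08 ± 0.21). Psmf1, the inhibitor PI31, measured 29.1, 35.6 and 42.0 CPM in the controls and 29.3, 28.2 and 30.1 CPM in the treated tumors (−0.28 ± 0.21), with control 5 between treated 1 and treated 2.

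The chaperones, which assemble rings and base and then leave, were mixed. Psmg3, of the alpha-ring chaperone pair with Psmg4, measured 4.43, 10.7 and 8.61 CPM in the controls and 3.31, 3.38 and 5.20 CPM in the treated tumors (−0.99 ± 0.42, unadjusted p = 0.0558, adjusted p = 0.294, edgeR). Psmd9, a base chaperone, measured 17.1, 38.3 and 47.9 CPM in the controls and 17.4, 18.7 and 23.8 CPM in the treated tumors (−0.78 ± 0.40). Psmd5, also a base chaperone, was level at 61.8, 58.3 and 70.1 CPM in the controls and 66.0, 52.2 and 62.9 CPM in the treated tumors (−0.07 ± 0.19). Controls 6 and 7 were the high libraries for Psmg3 and Psmd9, and without them the log2 fold changes were −0.15 and 0.24. Of the 7 chaperones, 4 had log2 fold changes below 0 with TMM scaling, and 3 with library totals.

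Setting each gene against the median proteasome gene of its own library removes the scaling of libraries from the comparison. On that scale the SD over the 6 libraries was below 0.2 (log2) for 22 of the 43 genes, with a median of 0.19, and it was highest for Psmg3 (0.57), Psmd11 (0.56) and Psme2 (0.49). The groups did not overlap, with treated tumors higher, for 4 genes (Psme2, Psme1, Psmg4 and Psmd7), against 12.1% of all genes. They did not overlap, with treated tumors lower, for 3 genes (Psme4, Psmd6 and Psmc6), against 4.16% of all genes. Relative to the median gene, the mean of treated minus control tumors was 0.72 for Psme2, 0.45 for Psme1 and 0.53 for Psmg4, and −0.58 for Psme4, −0.21 for Psmd6 and −0.06 for Psmc6. For Psmd7 it was 0.09. Psmd11 and Psmd14 differed as much but overlapped, since control 5 lay with the treated tumors. These genes were selected on their values, and no test was made of them.

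**Figure D4:**
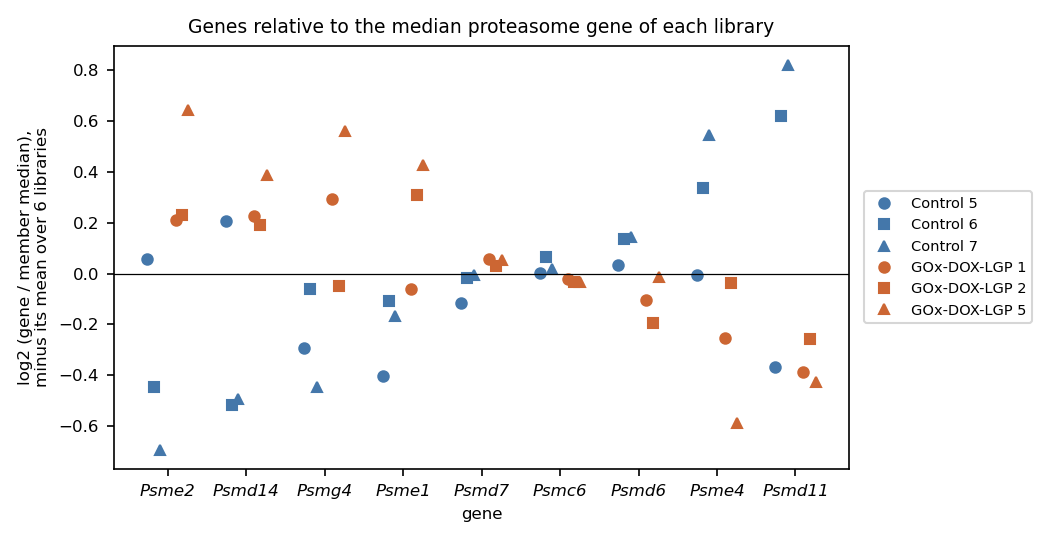
Log2 ratio of 9 genes (x axis) to the median proteasome gene of the same library, minus each gene's mean over the 6 libraries (y axis), for control (blue) and GOx-DOX-LGP (orange) libraries. Blue and orange do not overlap for the 7 genes named in the text, while for Psmd14 and Psmd11 the control 5 point lies among the treated ones.

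The balance of cap to core differed by library more than by group. The median level of cap genes over that of core genes, in CPM per kb, was 0.992, 0.656 and 0.729 for the control tumors and 0.984, 0.917 and 0.821 for the treated ones, so control 5 lay above the treated tumors and controls 6 and 7 below them. The alpha-to-beta ratio stayed between 1.00 and 1.18. The share of all counts that fell on proteasome genes was 0.456%, 0.340% and 0.319% in the controls and 0.479%, 0.419% and 0.542% in the treated tumors, groups that overlapped.

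The inducible catalytic subunits replace their standing counterparts one for one, and the level of each was set against that of its partner. Psmb8 over Psmb5, in CPM per kb, was 2.86, 1.09 and 0.522 for the control tumors and 2.93, 4.30 and 3.58 for the treated ones. The counts of Psmb5 are uncertain because of its shared stretches, and so is the size of this ratio. Psmb10 over Psmb7 was 0.686, 0.490 and 0.357 in the controls and 0.913, 1.12 and 1.25 in the treated tumors. Psmb9 over Psmb6 was 0.815, 0.182 and 0.0927 in the controls and 0.714, 0.861 and 0.929 in the treated tumors. The groups thus did not overlap for Psmb8 and Psmb10, by a narrow margin of control 5 below treated 1 for Psmb8, and overlapped for Psmb9. The part of leukocytes in these ratios was not tested. Psmb8 itself measured 104, 62.4 and 38.6 CPM in the controls and 128, 153 and 184 CPM in the treated tumors (1.18 ± 0.40, adjusted p = 0.247, edgeR). The log2 fold change was 0.69 ± 0.22 for Psmb10 (adjusted p = 0.247) and 1.14 ± 0.53 for Psmb9 (adjusted p = 0.325), and it was 0.58 for Psmb8, 0.64 for Psmb10 and 0.32 for Psmb9 without controls 6 and 7.

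**Figure D5:**
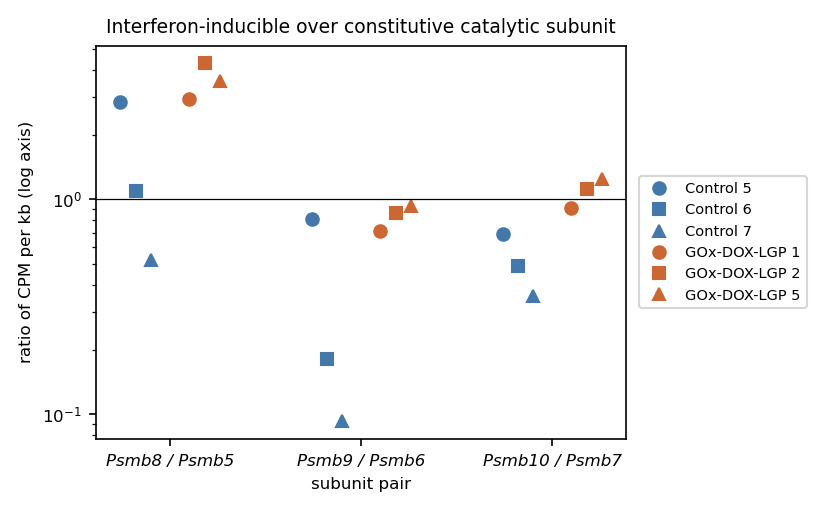
Level of each interferon-inducible catalytic subunit over that of the standing subunit it replaces (y axis, ratio of CPM per kb, log scale) for 3 pairs (x axis), in control (blue) and GOx-DOX-LGP (orange) libraries. Controls 6 and 7 are the lowest points of every pair, and control 5 lies next to the treated libraries.

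Outside the family, 30 genes were tested that work with the proteasome, and 0 had an adjusted p under 0.05 in edgeR. At an unadjusted p under 0.05, 2 were lower, Ddi2 among them, and 0 higher, and the groups did not overlap for 5 lower and 2 higher genes, beside the shares of all genes given above. Ddi2, the protease that cuts and activates NRF1, measured 90.3, 197 and 216 CPM in the controls and 76.2, 74.4 and 66.8 CPM in the treated tumors, without overlap (−1.21 ± 0.36, unadjusted p = 0.0155, adjusted p = 0.247, edgeR). DESeq2 gave Ddi2 an adjusted p of 0.0445, the alternatives ranged from 0.000526 to 0.885, and without controls 6 and 7 its log2 fold change was −0.30. Ngly1 encodes a deglycosylating enzyme that NRF1 also needs. It measured 25.0, 57.3 and 84.2 CPM in the controls and 25.6, 30.5 and 24.0 CPM in the treated tumors (−1.05 ± 0.44).

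Nfe2l1, which encodes NRF1 itself, was level, at 168, 169 and 169 CPM in the controls and 171, 212 and 153 CPM in the treated tumors (0.08 ± 0.23). Nfe2l2, which encodes NRF2, measured 250, 166 and 174 CPM in the controls and 233, 197 and 215 CPM in the treated tumors (0.13 ± 0.27). Neither differed by more than its replicate spread. Pomp, the chaperone that matures the beta ring, measured 71.0, 144 and 188 CPM in the controls and 84.5, 74.3 and 103 CPM in the treated tumors (−0.62 ± 0.39). Adrm1, the ubiquitin receptor of the cap, measured 39.7, 61.0 and 83.8 CPM in the controls and 43.8, 38.7 and 42.5 CPM in the treated tumors (−0.56 ± 0.30). Ubqln1, a shuttle that carries tagged proteins to the cap, measured 105, 164 and 255 CPM in the controls and 114, 95.7 and 93.0 CPM in the treated tumors (−0.79 ± 0.36). In Pomp, Adrm1 and Ubqln1 controls 6 and 7 were the highest libraries and control 5 lay near the treated tumors.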

How the data were processed

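RNA from 3 control and 3 treated tumors was analysed. The authors deposited raw counts per gene (55536 genes), without pooling, and signal values in which each library's counts are divided by 1 size factor that the authors computed. The paper's methods name TopHat and HTSeq, and the submitters' processing notes name Trimmomatic 0.38, HISAT2 2.1.0 and featureCounts 2.0.0. The tool behind the counts, and whether strand was used, are therefore not settled in the sources used here. Psma4, Psma5, Psmb7, Psmc3, Psmd1, Psmd3, Psmd9, Psmd13 and Psme1 overlap genes of the opposite strand and are uncertain to that degree. Besides Psmb5, Psma5 and Psme2, stretches of 50 bases shared with other genes made up 25.7% of Adrm1 and 17.8% of Psmb3 and Psmd2. The shared part was 15.4% for Psma3, 14.1% for Psmc1, 11.6% for Psma4 and 9.43% for Psmd11, and these counts are uncertain too.

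Counts were filtered with filterByExpr, TMM-scaled and tested with edgeR 4.0.16 (quasi-likelihood, no covariates, all 6 libraries, Benjamini-Hochberg, threshold 0.05) in R 4.3.3. limma 3.58.1 and DESeq2 1.42.0 served as alternatives, with other scalings, filters, a hepatocyte covariate, and libraries left out. Figures used Python 3.11.15 and matplotlib 3.10.9. Annotation and transcript lengths came from GENCODE M21 (GRCm38), in which all 55536 gene identifiers were found. Of the 31 listed partner genes, 1 had no match. In these libraries 3 counts correspond to 0.132 to 0.323 CPM, a floor that covers counting error only. The labels do not state that replicates are separate mice, so p-values set the group difference against the spread between libraries within a group.

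The members, gene lists and tests were chosen with earlier results of these data known. Values in every library are given for the catalytic subunits, the activators and inhibitor, the 2 smallest p and the flattest gene of each class, and the partners with the 4 smallest p plus Pomp, Adrm1, Nfe2l1 and Nfe2l2. Among the partners, 1 gene that meets the rule is not reported here. Uses beyond that rule are stated in the text. On simulated counts with a log2 fold change of 2, edgeR recovered 189 of 192 changed genes (15214 genes, dispersion 0.05) but 0 of 191 at the dispersion of these data (15098 genes), where DESeq2 recovered 118 with 67 false calls.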

Additional observations from a re-analysis of the deposited data

How the results depend on the processing

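No paired analysis was possible because the groups share only the library number 5. The count of all genes with an adjusted p under 0.05 was 0 with edgeR (2685 at an unadjusted p under 0.05) and stayed 0 under every other scaling, filter and the covariate, but was 1516 with DESeq2 (143 higher, 1373 lower) and 9254 with limma voom and quality weights, and 0 to 7745 when 1 library was left out. The count of proteasome genes called was 22 with voom (20 lower, 30.9% of all genes being called lower, and 2 higher, Psmd14 and Psme2, with 29.2%), and 0 to 14 when 1 library was left out. The 14, without control 5, were all lower, where 25.5% of all genes were called lower and 22.2% higher. The median log2 fold change of the proteasome genes, −0.24, was 0.36 with library totals, −0.73 with housekeeping genes, and 0.12 without controls 6 and 7, a fit in which the lone control is assumed to vary like the treated libraries. It lay between −0.37 and −0.09 when 1 library was left out. The median log2 CPM of the proteasome genes in each library had an SD of 0.22 over controls and 0.13 over treated libraries. Apart from what the settings are built from, the causes were not tested.

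Signs of single genes turned as follows. With library totals the log2 fold change was 0.30 for Psmb5, 0.17 for Psmb6, 0.13 for Psmb7, 0.13 for Psma4, 0.19 for Psma3, 0.41 for Psma5, 0.46 for Psmb2, 0.11 for Psmc2, 0.18 for Psmc1, 0.48 for Psmc5, 0.16 for Psmd6, 0.49 for Psmd2, 0.44 for Psme3, 0.47 for Psmd5, 0.31 for Psmf1, 0.086 for Pomp and 0.10 for Adrm1. With the upper quartile it was 0.014 for Psma5, 0.060 for Psmb2, 0.13 for Psmc5, 0.17 for Psmd2, 0.10 for Psme3 and 0.12 for Psmd5. With the hepatocyte covariate it was 0.078 for Psmb5, 0.031 for Psmb6, 0.011 for Psma4, 0.027 for Psma3, 0.023 for Psma5, 0.076 for Psmb2, 0.030 for Pomp and −0.067 for Nfe2l2. Without controls 6 and 7 it was 0.27 for Psmb5, 0.28 for Psmb6, 0.26 for Psma4, 0.25 for Psma3, 0.12 for Psma5, 0.27 for Psmb3, 0.17 for Psmb2, 0.15 for Psmc1, 0.24 for Psmd9, 0.020 for Psmf1, 0.11 for Ngly1, 0.31 for Pomp, 0.086 for Adrm1 and −0.20 for Nfe2l2. With housekeeping genes it was −0.29 for Psme1, −0.38 for Nfe2l1 and −0.29 for Nfe2l2. With no filter it was 0.013 for Psmc5, 0.056 for Psmd2 and 0.0008 for Psmd5. With voom it was 0.11 for Psmc5, 0.17 for Psmd2, 0.15 for Psme3 and 0.091 for Psmd5. When 1 library was left out it ranged from −0.25 to 0.040 for Psmb2, −0.15 to 0.092 for Psmc5, −0.11 to 0.089 for Psmd2, −0.18 to 0.0077 for Psme3, −0.13 to 0.043 for Psmd5 and −0.040 to 0.23 for Nfe2l1.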
